A study of Mus musculus with 15 samples.

Results

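The 39 Hox genes of the mouse, those whose name in the deposited table is Hox, a cluster letter from a to d and a paralog number, were followed through the aorta-gonad-mesonephros (AGM) region of the embryo. They are 39 of the 28876 genes listed, and 37 of them passed the filter on low values, 0.5 RPM in at least 1 library, under which 18553 genes of the series were tested. In NCBIM37, the mouse build to which the reads were aligned, the Hoxa cluster has 11 genes on chromosome 6, the Hoxb cluster 10 on chromosome 11 (96055630 to 96229570), the Hoxc cluster 9 on chromosome 15 (102751534 to 102867274) and the Hoxd cluster 9 on chromosome 2 (74506367 to 74603200). All are annotated as protein-coding.

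Hox genes encode homeodomain transcription factors that give cells of the trunk their position along the head-to-tail axis. Genes of the 4 clusters that descend from the same ancestral gene share a paralog number. Within a cluster the genes lie in the order of these numbers, and low numbers are switched on early and far forward in the body, high numbers late and toward the tail. Retinoic acid and the caudal-related Cdx factors act upstream of them, and the TALE homeodomain proteins of the Pbx, Meis and Pknox families bind DNA together with them. Posterior Hox genes pattern the limb, the hindgut, the genital tubercle and the urogenital system.

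The 15 libraries came from C57BL/6 embryos with no genetic change or treatment, in 5 groups of 3. At E9.5 the dorsal aorta and the tissue around it were divided into a dorsal part (E9.5 AoD) and a ventral part (E9.5 AoV). At E10.5 the same parts (E10.5 AoD and E10.5 AoV) were taken and the urogenital ridges (E10.5 UGR), beside the aorta, were collected as well. Per the study's methods, each library holds tissue pooled from many embryos, collected in separate experiments, so the replicates are pools and not single embryos, and the parts of 1 stage may come from the same embryos. All are mixed tissues, and in such bulk samples fewer cells of a type and less RNA per cell cannot be told apart.

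Levels are RPM, the authors' reads of a gene scaled to a common library total, and a group is given as mean ± SD with n = 3. Depth, in units of 1e6 reads, was inferred at 33.74 to 48.63 per library from the steps between low values, so that 3 reads are worth 0.0617 to 0.0889 RPM, and numbers of reads given below rest on this inference. The labelled tissues were checked against marker genes. All 5 endothelial genes examined were present in every group, with sums between 263 and 636 RPM over the 15 libraries. The 8 urogenital and nephric genes summed to 725 to 795 RPM in E10.5 UGR, to 601 to 627 RPM in E10.5 AoV and to at most 175 RPM in the other groups. The 6 somite genes summed to at least 440.6 RPM in both AoD groups and to at most 76.9 RPM in both AoV groups.

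Sequences immediately upstream of 4 members are shown because these genes stand for the main patterns described below. Hoxa13 and Hoxd13 were highest in E9.5 AoV, Hoxd4 fell between the stages in AoD and not in AoV, and Hoxb8 was lower in AoV at both stages. Each is the 250 bases before a RefSeq start in GRCm38.p6, written from 5′ to 3′ on the strand of the gene. The windows lie at chr6:52260881-52261130 (minus strand), chr2:74667975-74668224, chr2:74721728-74721977 and chr11:96281655-96281904 (plus strand), in this order of genes. Each matches NCBIM37 exactly at 1 place and touches no annotated exon there, while that of Hoxd4 lies within an intron of Hoxd3. Capitals mark matches, on either strand, to 4 short motifs, the CDX-type TTTATG, the retinoic acid receptor half-site AGGTCA, the HOX-TALE TGATTNAT and the TATA-box TATAAA.
Hoxa13: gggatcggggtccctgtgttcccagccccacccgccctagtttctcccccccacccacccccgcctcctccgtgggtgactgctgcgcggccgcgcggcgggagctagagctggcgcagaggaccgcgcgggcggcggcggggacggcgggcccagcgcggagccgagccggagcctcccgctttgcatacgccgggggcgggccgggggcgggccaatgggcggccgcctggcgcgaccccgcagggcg
Hoxd13: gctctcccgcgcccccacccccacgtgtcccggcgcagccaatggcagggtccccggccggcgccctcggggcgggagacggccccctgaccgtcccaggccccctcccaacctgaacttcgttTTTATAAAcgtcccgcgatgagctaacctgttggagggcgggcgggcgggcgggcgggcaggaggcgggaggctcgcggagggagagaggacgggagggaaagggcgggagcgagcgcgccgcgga
Hoxd4: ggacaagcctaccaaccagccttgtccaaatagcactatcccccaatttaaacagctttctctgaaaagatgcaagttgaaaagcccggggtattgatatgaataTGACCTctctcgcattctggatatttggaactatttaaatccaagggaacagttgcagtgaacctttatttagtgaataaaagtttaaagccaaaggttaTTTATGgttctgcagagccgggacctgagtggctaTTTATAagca
Hoxb8: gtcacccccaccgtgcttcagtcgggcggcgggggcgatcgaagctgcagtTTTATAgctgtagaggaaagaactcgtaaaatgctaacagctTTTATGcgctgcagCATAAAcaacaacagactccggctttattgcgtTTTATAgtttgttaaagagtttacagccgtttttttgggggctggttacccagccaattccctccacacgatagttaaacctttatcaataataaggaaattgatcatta

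Of all 32851 RefSeq windows of this length, 10.8% held the CDX-type motif, 14% the half-site, 2.83% the HOX-TALE motif and 12.4% the TATA-box letters. Windows were at hand for 22 of the 39 Hox genes, and 5, 6, 2 and 4 of these genes held the motifs. The Hoxa13 window, of which 80% of the bases are G or C, held none of them. In the Hoxd13 window the TATA-box letters occur on both strands with an overlap. The Hoxd4 window held the half-site, the CDX-type and the TATA-box letters, and the Hoxb8 window the CDX-type and the TATA-box letters, each at 2 places. These matches are a description of letters and not of bound sites.

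To compare genes with each other, levels were divided by the length of the gene's merged exons (RPM per kilobase, RPM/kb). All 39 genes together summed to 545 ± 25 RPM/kb in E9.5 AoD, 328 ± 17.6 in E9.5 AoV, 385 ± 11.6 in E10.5 AoD and 413 ± 23 in E10.5 UGR, and to 342 to 361 RPM/kb, with a mean of 349, in the libraries of E10.5 AoV. The E9.5 AoD libraries, at 526 to 574 RPM/kb, lay above all 12 others, of which the highest was at 434. By mean RPM over all 15 libraries the highest gene of each cluster was Hoxa5 (60.9), Hoxb9 (140.2), Hoxc8 (51.2) and Hoxd3 (64.9). Per kilobase the highest of the Hoxd cluster was Hoxd9 (16.9 RPM/kb). Hoxb9 reached 116 RPM/kb in E9.5 AoD and 28.9 in E9.5 AoV.

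**Figure D1:**
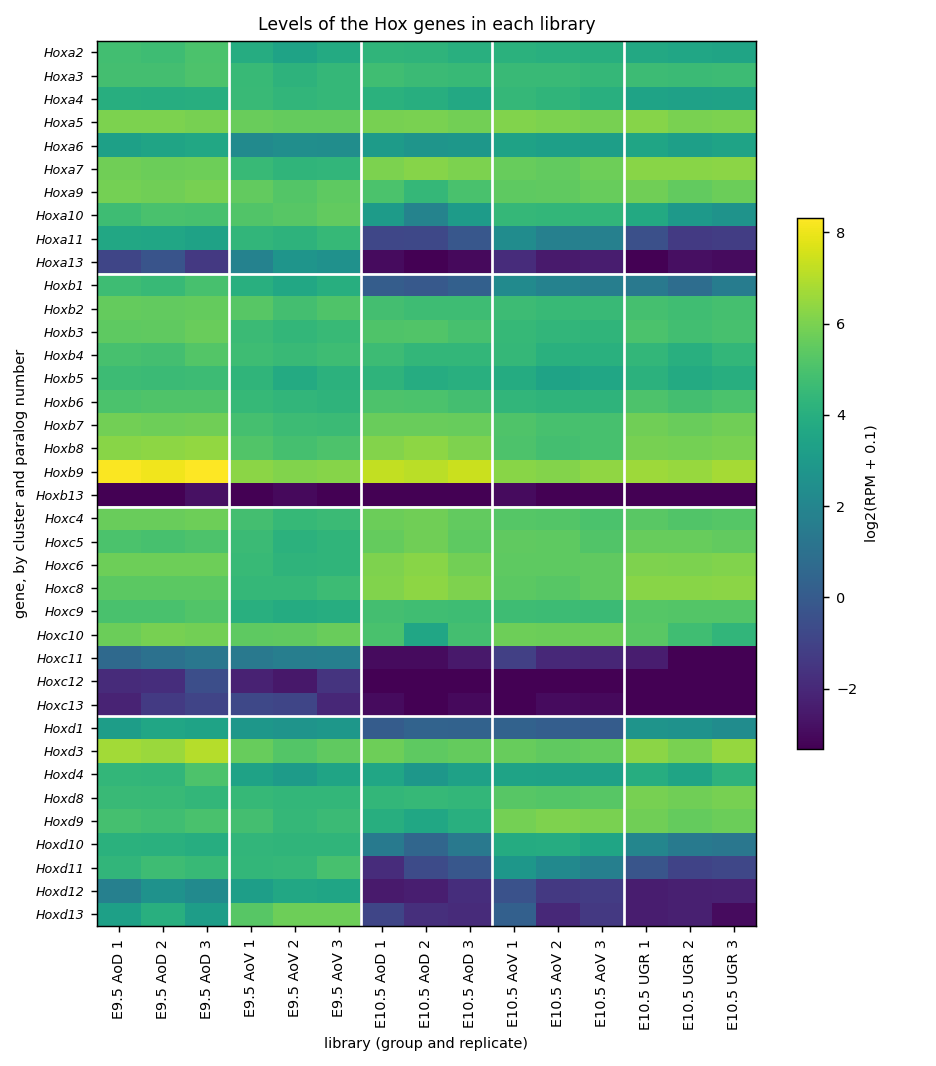
Level of the Hox genes (rows, by cluster and paralog number) in each of the 15 libraries (columns, by group), as log2(RPM + 0.1) on the colour scale. Genes with paralog numbers 12 and 13 are dark in the 9 libraries of E10.5, and Hoxb13 is dark in all 15.

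The makeup by paralog number differed between the groups. Genes with paralog numbers 10 to 13 made up 25.1% ± 3.07 of the summed Hox level per kilobase in E9.5 AoV and 11.1% ± 1.33 in E9.5 AoD. At E10.5 they made up 11.7% ± 0.324 in AoV, 4.03% ± 1.70 in AoD and 4.59% ± 1.45 in UGR. Every AoV library was thus above every AoD library of its stage. The Hoxb cluster held 42.9% ± 0.933 of the sum in E9.5 AoD and 23.8% ± 0.917 in E10.5 AoV, and the Hoxd cluster 7.31% ± 0.672 in E10.5 AoD against 13.3% to 21.4% as mean of the other 4 groups. These shares are descriptions, with no test.

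**Figure D2:**
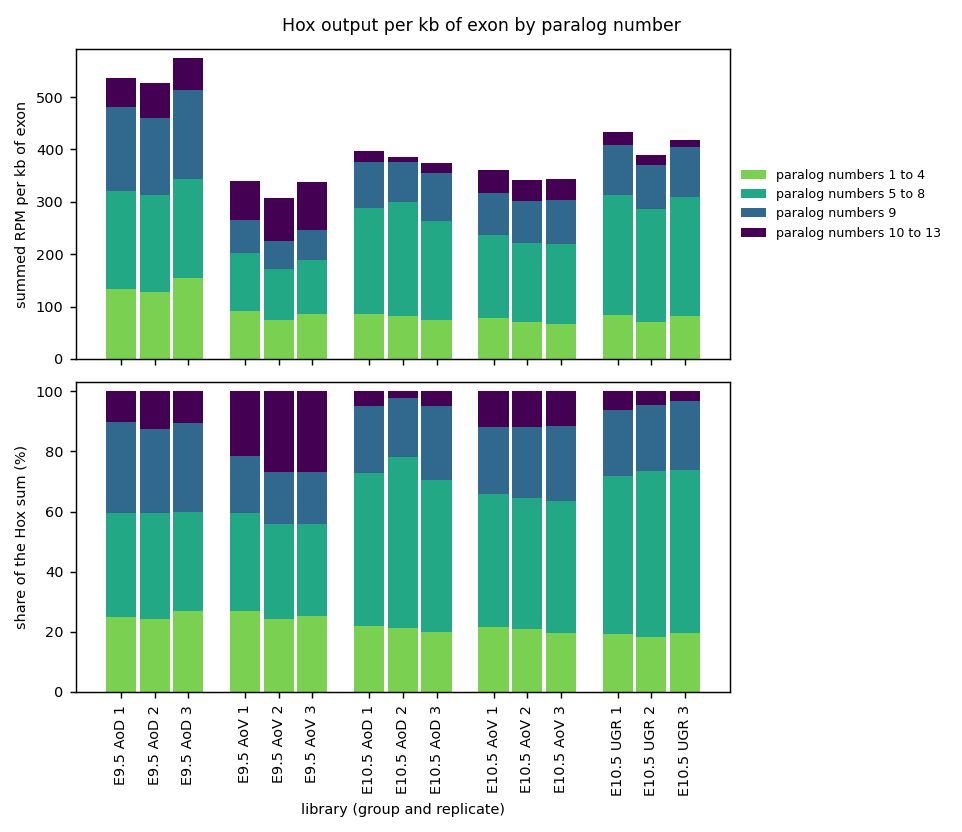
Summed level of the Hox genes per kilobase of exon (top, RPM/kb) and its division in percent (bottom) in each of the 15 libraries, coloured by paralog number. The darkest segment, paralog numbers 10 to 13, is largest in the 3 libraries of E9.5 AoV (21.5% to 26.9%) and smallest in E10.5 AoD replicate 2 (2.07%).

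The first comparison asked how the ventral tissue changed from E9.5, when its capacity to support hematopoietic stem cell development is low, to E10.5. A gene was called when its adjusted p, from limma over all tested genes, was below 0.05 and its level changed at least 2-fold, and differences are on the log2(RPM + 0.1) scale, which understates the change of low genes. In E10.5 AoV 10 Hox genes fell and 3 rose of the 37 tested (35.1%), where 11% of all tested genes were called, 6.04% higher and 4.99% lower. Without the fold threshold 27 passed, against 46% of all genes, and the ranges of the groups did not overlap for 27, against 55%. The genes that fell lie toward the ends of the clusters, among them Hoxb1, Hoxd1 and 7 of the 10 tested with paralog numbers 10 to 13. The genes that rose, Hoxd9, Hoxa7 and Hoxc6, lie between them. Of the 7 that fell, Hoxa13, Hoxc11 and Hoxc12 passed the filter only through libraries of E9.5, the stage where they are higher. The median difference was -0.06 over the 37 genes and -0.00163 over all genes, and by paralog number it was 0.06 for 2 to 4, 0.85 for 5 to 8, 0.43 for 9 and -2.36 for 10 to 13.

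The largest fall was that of Hoxd13, which patterns the digits and the genital tubercle. It stood at 39, 53.9 and 54.5 RPM in E9.5 AoV and at 1.09, 0.153 and 0.279 RPM in E10.5 AoV, a log2 difference of -6.65 (SE 0.446, adjusted p = 2.41e-08). Hoxa13, needed for the same structures and for the hindgut, went from 3.49, 6.59 and 5.82 RPM to 0.182, 0.0767 and 0.0931 RPM (log2 difference -4.62, SE 0.3, adjusted p = 1.78e-08). No library of E10.5 came near those of E9.5. Hoxd12, the neighbour of Hoxd13, fell from 9.12, 12.7 and 11.4 RPM to 0.675, 0.281 and 0.326 RPM (log2 difference -4.47, adjusted p = 1.01e-08). Hoxc11, a posterior gene of the hindlimb level, fell from 2.53, 3.04 and 3.11 RPM to 0.363, 0.153 and 0.140 RPM (log2 difference -3.29, adjusted p = 4.21e-07). In all 4 genes the highest library of E10.5 AoV was replicate 1, and none of these calls was lost without it.

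Hoxd9, a gene of the trunk and the hindlimb, rose from 29.0, 21.6 and 24.6 RPM in E9.5 AoV to 60.0, 66.9 and 63.5 RPM in E10.5 AoV, 2.53-fold by the means (log2 difference 1.35, SE 0.12, adjusted p = 4.21e-07). Hoxa7, which patterns the thoracic region, rose from 23.1, 19.4 and 20.2 RPM to 49.3, 46.2 and 53.8 RPM (log2 difference 1.25, adjusted p = 4.18e-09). Hoxc6 rose from 22.8, 18.9 and 19.8 RPM to 42.7, 43.3 and 44.4 RPM (log2 difference 1.08, adjusted p = 6.56e-08). The ranges of the groups did not overlap in any of the 3 genes. The neighbours Hoxc5 (0.98), Hoxa6 (0.91), Hoxc8 (0.88), Hoxd8 (0.85) and Hoxc9 (0.74) passed the adjusted p without reaching 2-fold, and Hoxc5 was called without E9.5 AoV replicate 1 or E10.5 AoV replicate 3. In the Hoxb cluster no gene rose, and Hoxb1 alone fell.

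Among genes with paralog number 1, which mark the hindbrain and the earliest trunk, Hoxd1 fell from 7.11, 6.49 and 7.15 RPM to 1.17, 1.02 and 0.955 RPM (log2 difference -2.61, adjusted p = 1.67e-09). Hoxb1 changed by -1.99 (adjusted p = 1.04e-06). Further posterior genes that fell were Hoxa11 (-2.39), Hoxd11 (-2.33) and Hoxc12 (-1.21). Hoxc12 was at 5, 3 and 10 reads in E9.5 AoV and at 0 reads in all 3 libraries of E10.5 AoV, at least 5.61-fold lower against a floor of 3 reads over the group. Its call was lost with a pseudocount of 1 RPM and without E9.5 AoV replicate 3. It passed the filter only through E9.5 AoD replicate 3, a library outside this comparison.

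The E9.5 AoV libraries were also high in markers of the hindlimb, the caudal ventral mesoderm and the hindgut. Of the 3 genes for hindlimb and caudal ventral mesoderm, 2 fell in E10.5 AoV, and the list summed to 222 to 232 RPM in E9.5 AoV, 34.9 to 55.6 in E9.5 AoD, 26.4 to 30.2 in E10.5 AoD, 70.95 to 75.0 in E10.5 AoV and 7.54 to 8.26 in E10.5 UGR. Tbx4, which specifies the hindlimb, stood at 76.9, 83.2 and 75.3 RPM in E9.5 AoV against 2.18, 2.43 and 2.42 RPM in E10.5 AoV (log2 difference -5.01). Of the 8 hindgut genes 7 fell, with sums of 269.6 to 332 RPM in E9.5 AoV and 33.4 to 36.1 RPM in E10.5 AoV, and of the 9 tail bud genes 7 fell, with sums of 14.9 to 27.5 and 3.40 to 4.21 RPM. The tail bud sums of E9.5 AoV were below those of both AoD groups, 34.1 to 54.5 RPM at E9.5 and 33.7 to 41.6 RPM at E10.5. Of the other lists, 6 of the 9 neural tube genes fell and 5 of the 8 urogenital and nephric genes rose, while the 5 endothelial genes had a median log2 difference of 0.31. Among the tail bud genes Wnt3a and Cdx4 were at 3 reads or fewer in every library of E10.5 AoV. Their part in the fall of the posterior Hox genes was not tested.

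The same step in the dorsal part gave a wider loss. In E10.5 AoD 17 of 37 Hox genes fell (45.9%, where 12.6% of all tested genes were called, 8.6% higher and 4% lower) and none was called higher. Without the fold threshold 30 passed, against 57.8% of all genes, and the ranges did not overlap for 31, against 60.7%. Among these were Hoxb1, Hoxd1, all 10 tested with paralog numbers 10 to 13, 2 with number 9 and 2 with numbers 2 to 4. Of the 10, Hoxa13 and Hoxc11 passed the filter only through libraries of E9.5, the stage where they are higher, and Hoxc12 only through E9.5 AoD replicate 3. Of the 9 Hoxd genes 8 fell, of the 9 tested Hoxb genes 1. The median difference was -0.81 over the Hox genes and -0.00187 over all genes.

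Hoxd11, which patterns the forearm and the kidney together with Hoxa11, stood at 19.9, 26.1 and 22.6 RPM in E9.5 AoD and at 0.179, 0.527 and 0.805 RPM in E10.5 AoD. The means differed 45.4-fold (log2 difference -5.40, SE 0.362, adjusted p = 1.69e-08). Hoxd13 went from 9.81, 16.2 and 8.70 RPM to 0.436, 0.201 and 0.166 RPM (log2 difference -5.01, adjusted p = 2.71e-07). Every library of E10.5 AoD was far below every library of E9.5 AoD. Hoxb1 went from 26.3, 22.7 and 30.1 RPM to 0.974, 0.853 and 1.07 RPM, 27.3-fold (log2 difference -4.63, SE 0.194, adjusted p = 3.27e-10). Hoxd12 went from 3.29, 6.02 and 4.72 RPM to 0.0769, 0.1 and 0.189 RPM (log2 difference -4.42, adjusted p = 8.04e-09).

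Hoxa11 (-4.14), Hoxc11 (-3.86), Hoxd1 (-3.13), Hoxd10 (-2.93), Hoxa13 (-2.26), Hoxa10 (-2.20) and Hoxc12 (-1.92) fell as well. Hoxa13 was counted at 18, 27 and 13 reads in E9.5 AoD and at 1, 0 and 1 read in E10.5 AoD, a ratio of 28.2 with a 95% exact counting interval of 7.46 to 238. Hoxc12 was at 7, 7 and 28 reads and then at 0 in every library, at least 13.6-fold lower. Both calls were lost with a pseudocount of 1 RPM. Hoxc12 passed the filter only through E9.5 AoD replicate 3, at 0.599 RPM, in the group where it is highest. Without that library it was not tested.

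Smaller falls were those of Hoxc10 (-1.38), Hoxd4 (-1.36), Hoxd3 (-1.17), Hoxa9 (-1.07) and Hoxd9 (-1.0). Hoxc10 stood at 51.7, 61.5 and 58.1 RPM in E9.5 AoD and at 31.2, 11.7 and 28.5 RPM in E10.5 AoD, so that 1 library, replicate 2, was far below the other 2. Without that library the difference was -0.93 and the call was lost, as were those of Hoxa9 and Hoxd9. The call of Hoxd9 was also lost without E9.5 AoD replicate 1 or 3 and with a pseudocount of 1 RPM. Hoxd3 and Hoxd4 share 1725 bases of exon, 67.4% of that of Hoxd4, so that their reads could have been divided between them. Hoxc8 (0.80), Hoxc5 (0.61), Hoxa7 (0.33) and Hoxc6 (1.22-fold by the means) were higher in every library of E10.5 AoD, each by less than 2-fold.

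**Figure D3:**
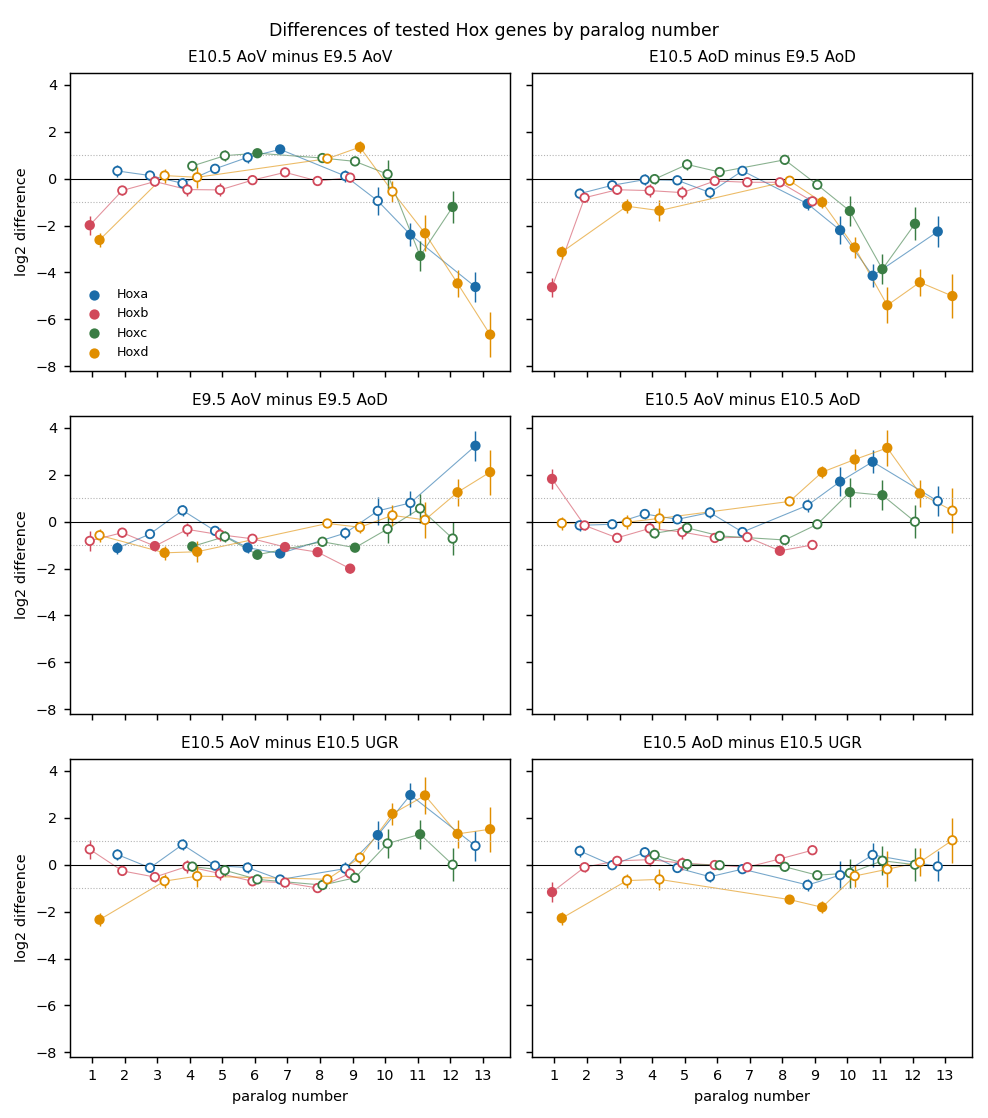
Log2 difference, on the log2(RPM + 0.1) scale, of the tested Hox genes (vertical axis) by paralog number (horizontal axis) in 6 comparisons, coloured by cluster. Bars are 95% confidence intervals, filled points are called genes, and dotted lines mark a 2-fold change. The points fall at paralog numbers 1 and 11 to 13 in both stage comparisons. At number 10 they fall in AoD, while in AoV Hoxc10 lies slightly above 0 (0.19). Most points at numbers 10 to 12 rise in E10.5 AoV against E10.5 AoD and against E10.5 UGR.

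Markers moved with this comparison too. Of the 9 neural tube genes 8 fell in E10.5 AoD, with sums of 262 to 524.5 RPM in E9.5 AoD and 51.7 to 85.9 RPM in E10.5 AoD. Within E9.5 AoD replicate 3 had the highest sum. Of the 9 tail bud genes 7 fell, while T, which is also expressed in the notochord, rose (1.13), at 14.1 to 16.6 RPM in E9.5 AoD and 28.6 to 37.4 RPM in E10.5 AoD. Wnt3a, Msgn1 and Cdx4 were at 3 reads or fewer in every library of E10.5 AoD. Of the hindlimb and caudal ventral mesoderm genes Tbx4 (-4.15) and Pitx1 (-4.21) fell. Of the 5 endothelial genes 4 rose, with sums of 263 to 356.5 RPM in E9.5 AoD and 563 to 609 RPM in E10.5 AoD. Of the 8 hindgut genes 4 fell and 2 rose, with sums of 99.2 to 108 and 148 to 164 RPM, and of the 8 urogenital and nephric genes 4 fell and 1 rose, with sums of 58.5 to 152 and 61.1 to 87.8 RPM. Their part in the Hox differences was not tested.

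Whether the stage change differed between the ventral and the dorsal part was tested with the interaction term, the change in AoV minus that in AoD. It was called for 13 of 37 Hox genes (35.1%), 12 higher and 1 lower, where 11% of all tested genes were called, 4.12% higher and 6.89% lower. Without the fold threshold 24 passed, against 28.1% of all genes. The median interaction was 0.72 over the Hox genes and 0.01 over all genes. Positive values mean that a gene fell less, or rose more, in AoV. The 12 genes were Hoxa6, Hoxa9, Hoxa10, Hoxa11, Hoxb1, Hoxb9, Hoxc10, Hoxd3, Hoxd4, Hoxd9, Hoxd10 and Hoxd11, and the 1 lower was Hoxa13.

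Neighbouring genes of the Hoxd cluster had 3 of the 4 largest values. Hoxd11 had an interaction of 3.07 (SE 0.511, adjusted p = 0.00037), Hoxd10 of 2.38 (SE 0.304, adjusted p = 3.62e-05) and Hoxd9 of 2.35 (SE 0.170, adjusted p = 1.99e-07). Hoxd9 was the only gene called higher at E10.5 in AoV and lower in AoD. By the means several others moved in the same directions. Among them were Hoxa6, Hoxc9, Hoxa2 and Hoxd8, by less than 2-fold in both parts, and Hoxa9 and Hoxc10, which were called in AoD alone. At either side of Hoxd9, Hoxd10 and Hoxd11 the values were smaller, 0.94 for Hoxd8, which missed 2-fold, and -0.05 for Hoxd12. Hoxd10 stood at 20.1, 19.3 and 19.7 RPM in E9.5 AoV and at 14.3, 14.8 and 11.4 RPM in E10.5 AoV, but at 17.1, 16.6 and 15.3 RPM in E9.5 AoD and at 2.56, 1.33 and 2.51 RPM in E10.5 AoD. Hoxd3 (1.31) and Hoxd4 (1.42) were almost level in AoV, at 0.13 and 0.06, and fell in AoD.

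Outside the Hoxd cluster Hoxb1 had the largest interaction, 2.64 (SE 0.274, adjusted p = 5.46e-06), with a difference between the stages of -1.99 in AoV and -4.63 in AoD. Hoxa11 (1.75), Hoxc10 (1.57), Hoxa6 (1.5), Hoxa10 (1.25), Hoxa9 (1.18) and Hoxb9 (1.01) followed. Hoxa6 stood at 4.71, 5.31 and 5.19 RPM in E9.5 AoV and 10.2, 9.46 and 9.15 RPM in E10.5 AoV, against 9.60, 11 and 12.7 RPM in E9.5 AoD and 8.17, 6.64 and 7.16 RPM in E10.5 AoD. The call of Hoxa9 was lost without E10.5 AoD replicate 2 and that of Hoxa11 with a pseudocount of 1 RPM. Those of Hoxa10 and Hoxb9 were lost in 9 and 7 of the alternatives.

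Hoxa13 went the other way, with an interaction of -2.36 (SE 0.425, adjusted p = 0.000681), from a higher start in E9.5 AoV. Hoxd13 had -1.64 (adjusted p = 0.067), which did not pass, but passed with a pseudocount of 1 RPM, without E9.5 AoD replicate 2 and without E10.5 AoV replicate 1. On the fitted scale both differences end near the floor of the data at E10.5, so that their size depends on the pseudocount. The interaction was also called for markers. It was higher for 7 of the 9 neural tube genes (median 1.93) and 7 of the 8 urogenital and nephric genes (median 2.42), and lower for 4 of the 8 hindgut genes. It was higher for 3 and lower for 2 of the 9 tail bud genes, lower for 1 of the 6 somite and 1 of the 5 endothelial genes, and the 3 hindlimb and caudal ventral mesoderm genes, with a median of -0.86, were not called. Their part in the interactions of the Hox genes was not tested.

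**Figure D4:**
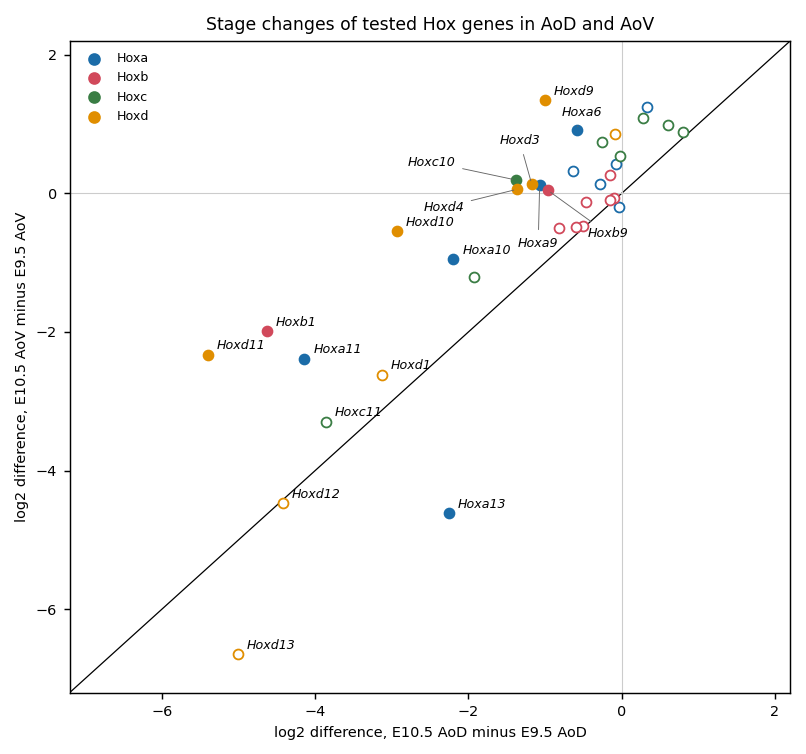
Log2 difference between the stages in AoV (vertical axis) against that in AoD (horizontal axis) for the tested Hox genes, coloured by cluster, with the line of equal change. Filled points are genes with a called interaction. Hoxd9, Hoxd10, Hoxd11 and Hoxb1 lie far above the line and Hoxa13 below it.

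The dorsal and ventral parts were then compared within each stage. At E9.5, 15 of 37 Hox genes were called (40.5%, where 11.8% of all tested genes were called), 12 lower in AoV (3.47% of all genes) and 3 higher (8.32%). By adjusted p alone 29 passed, against 47.7% of all genes, and the ranges did not overlap for 33, against 51.3%. The 3 higher genes were Hoxa13, Hoxd13 and Hoxd12, at or next to the ends of their clusters. The 12 lower genes had paralog numbers 2 to 9, 5 of them from 2 to 4, 5 from 5 to 8 and 2 with number 9. The Hoxb and Hoxc clusters contributed 4 and 3 of these. Over all 37 genes 28 differences were negative, with a median of -0.58 against 0.02 for all genes.

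Hoxa13 was 11-fold higher by the means in E9.5 AoV, with the values given above against 0.442, 0.725 and 0.278 RPM in E9.5 AoD (log2 difference 3.24, SE 0.3, adjusted p = 5.7e-07). Hoxd13 was 4.25-fold higher (log2 difference 2.11, SE 0.446, adjusted p = 0.00122) and Hoxd12 differed by 1.25 (SE 0.274, adjusted p = 0.00158). In each the lowest AoV library lay above the highest AoD library. Hoxa11 was 0.80 higher (adjusted p = 0.0103) and Hoxa10 0.46 (adjusted p = 0.202). Hoxd11 differed by 0.08 with a 95% interval of -0.70 to 0.85, and Hoxd10 by 0.27 with an interval of -0.19 to 0.73.

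Hoxb9, the most abundant Hox gene of the data and a marker of the thoracic trunk, stood at 303, 271 and 320 RPM in E9.5 AoD and at 79.4, 69.3 and 74.2 RPM in E9.5 AoV. It was 4.01-fold lower in AoV (log2 difference -2.0, SE 0.0853, adjusted p = 7.53e-10), the largest difference toward the dorsal part among the Hox genes. Hoxc6 stood at 54.4, 54.2 and 54.6 RPM in AoD, against the AoV values given above (log2 difference -1.41, adjusted p = 4.85e-09). Hoxa7 stood at 55.0, 51.4 and 54.3 RPM in AoD (-1.36, adjusted p = 2e-09). Hoxd3 stood at 103, 94.6 and 129 RPM in AoD and 48.6, 36.5 and 44.6 RPM in AoV (-1.33, adjusted p = 1.91e-06). The groups did not overlap in these 4 genes.

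The others lower in AoV were Hoxb8 (-1.30), Hoxd4 (-1.28), Hoxa2 (-1.12), Hoxc9 (-1.11), Hoxa6 (-1.11), Hoxb7 (-1.08), Hoxc4 (-1.06) and Hoxb3 (-1.04). Those of Hoxa2, Hoxc4 and Hoxb3 were lost without E9.5 AoV replicate 2, that of Hoxb3 also without E9.5 AoD replicate 3, and that of Hoxa6 with a pseudocount of 1 RPM. Hoxb7 and Hoxb8 share 1069 bases of exon (40.4% of that of Hoxb8), and Hoxb3 shares 37.9% of its exon length with an antisense transcript, so that their reads may in part not be told apart. Hoxa4 alone among paralog numbers 2 to 9 was higher in E9.5 AoV with an adjusted p below the threshold, at 23.6, 20.1 and 21.5 RPM against 15.6, 15.3 and 15.5 RPM (0.49, adjusted p = 0.0014), which is less than 2-fold. All 9 neural tube genes and all 6 somite genes were lower in E9.5 AoV, with neural sums of 32.2 to 43.9 RPM against 262 to 524.5 RPM, and 5 of the 8 hindgut and all 3 hindlimb and caudal ventral mesoderm genes were higher. Of the 9 tail bud genes 4 were lower in E9.5 AoV, T (-1.49), Wnt3a (-2.94), Fgf8 (-1.89) and Nkx1-2 (-2.47). Of the 8 urogenital and nephric genes 4 were lower and 1 higher, and of the 5 endothelial genes Tek was higher (1.54). Neurog1 was at 3 reads or fewer in all E9.5 AoV libraries. Their part in the differences was not tested.

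At E10.5, 10 of 37 Hox genes were called (27%, where 10.1% of all tested genes were called), 9 higher in AoV (5.81% of all genes) and 1 lower (4.29%). By adjusted p alone 24 passed, against 35.5% of all genes, and the ranges did not overlap for 26, against 49.5%. Of the 9, 7 have paralog numbers 10 to 12 and the others are Hoxd9 and Hoxb1. The genes with numbers 2 to 8 included no gene called higher and 1 called lower, Hoxb8. The median difference was 0 over the Hox genes and 0.02 over all genes. With quantile normalization 7 were called higher and 2 lower, and with median ratio scaling 9 and 2, since Hoxb9 (-0.99) lay at the edge of 2-fold.

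Hoxd11 stood at 7.11, 4.53 and 3.19 RPM in E10.5 AoV against 0.179, 0.527 and 0.805 RPM in E10.5 AoD, 9.81-fold by the means (log2 difference 3.15, SE 0.362, adjusted p = 6.17e-06). Hoxd10 was 6.33-fold higher, with the values given above (log2 difference 2.65, SE 0.215, adjusted p = 1.61e-07). Hoxa11 stood at 5, 3.27 and 3.29 RPM against 0.461, 0.474 and 0.791 RPM, 6.70-fold (log2 difference 2.56, SE 0.231, adjusted p = 5.29e-07). Hoxd9 stood at 60.0, 66.9 and 63.5 RPM against 15.7, 12.1 and 16.3 RPM, 4.32-fold (log2 difference 2.11, SE 0.12, adjusted p = 4.6e-09). In these 4 genes the lowest AoV library was at least 3.19 RPM and the groups were clearly apart. Since 38.6% of the exon length of Hoxa11 is covered by an antisense transcript, and no strand is stated for the counting, its reads cannot all be told apart from it.

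Hoxb1 (1.82, adjusted p = 2.77e-06), Hoxa10 (1.71, adjusted p = 0.000219), Hoxc10 (1.26, adjusted p = 0.00309), Hoxd12 (1.21, adjusted p = 0.00288) and Hoxc11 (1.13, adjusted p = 0.00725) were higher in E10.5 AoV as well. Hoxc10 stood at 53.8, 51.4 and 52.3 RPM in AoV, and without E10.5 AoD replicate 2 its difference was 0.81 and not called. The calls of Hoxc11 and Hoxd12 were lost without E10.5 AoV replicate 1, with a pseudocount of 1 RPM and with quantile normalization. Hoxd13 was at 1.09 RPM in E10.5 AoV replicate 1 and at 0.153 and 0.279 RPM in the others, against 0.166 to 0.436 RPM in E10.5 AoD. Its difference of 0.47 (95% interval -0.48 to 1.43) was within the spread and turned to -0.18 without that library.

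Hoxb8, a gene of the thoracic and lumbar trunk, was the member lower in AoV. It stood at 33.6, 28.9 and 30.2 RPM in E10.5 AoV and 72.3, 80.1 and 67.3 RPM in E10.5 AoD (log2 difference -1.24, SE 0.0784, adjusted p = 1.33e-08). At E9.5 its values were 35.9, 29.8 and 33.7 RPM in AoV and 77.3, 81.7 and 85.3 RPM in AoD, so that the levels in each part were similar at both stages. Its interaction was 0.06 with a 95% interval of -0.18 to 0.29. Hoxb9 (-0.99), Hoxc8 (-0.78), Hoxb3 (-0.69), Hoxb6 (-0.69), Hoxb7 (-0.66), Hoxc6 (-0.61) and Hoxc4 (-0.50) had lower levels in every AoV library, by less than 2-fold.

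At E10.5 the markers were divided between the parts as well. All 9 neural tube and all 6 somite genes were lower in AoV and 7 of the 8 urogenital and nephric genes higher. The sums of the neural genes were 12.8 to 14.3 RPM in AoV and 51.7 to 85.9 RPM in AoD, and Sox1 and Neurog1 were at 3 reads or fewer in every library of AoV. Of the 3 hindlimb and caudal ventral mesoderm genes 2 were higher in AoV. Tbx4 was 2.75 higher in AoV on the log2 scale, at 2.18 to 2.43 RPM against 0.231 to 0.301 RPM. Of the 8 hindgut genes 3 were higher and 3 lower in AoV, and of the 9 tail bud genes 1 was lower. None of the 5 endothelial genes was called. Their part in the Hox differences was not tested.

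**Figure D5:**
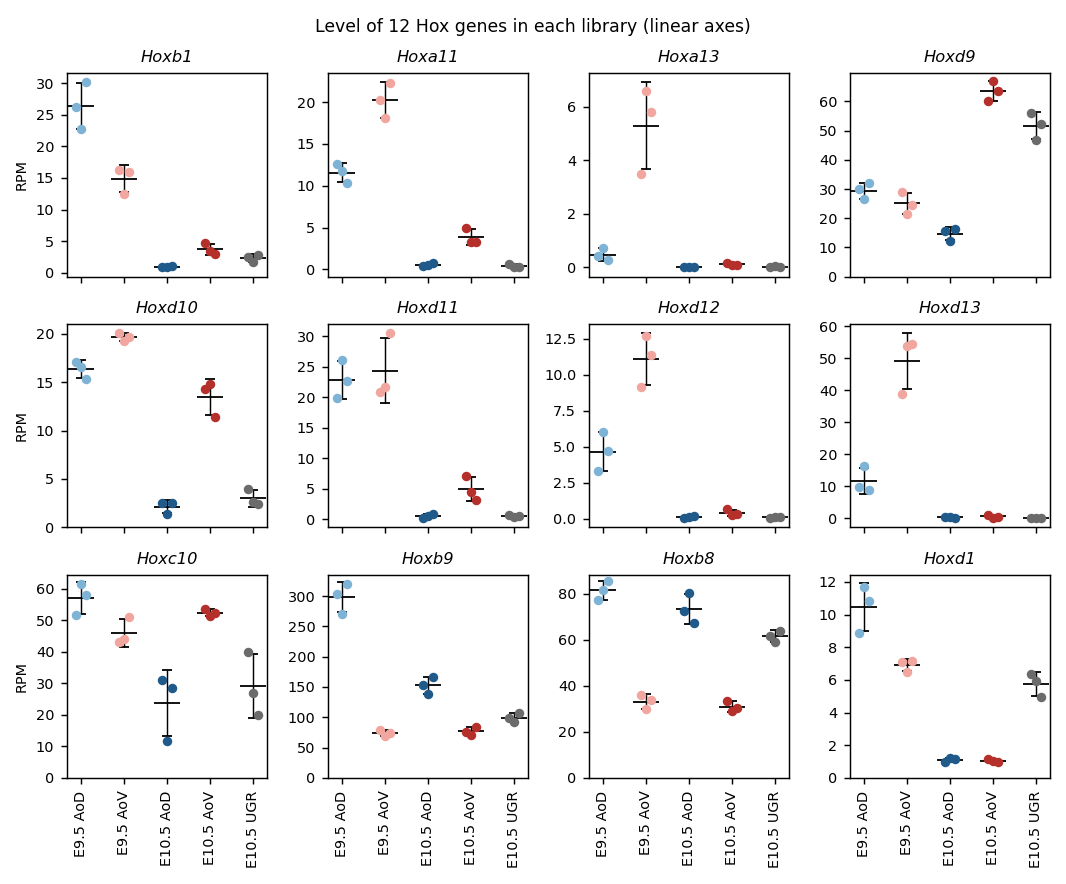
Level in RPM (vertical axes, linear) of 12 Hox genes in the 3 libraries of each of the 5 groups (points), with the mean (dash) and SD (bars). Hoxd13 and Hoxa13 stand out in E9.5 AoV, Hoxd9 is highest in E10.5 AoV and E10.5 UGR, and Hoxb8 and Hoxb9 are lower in AoV than in AoD at both stages.

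The urogenital ridges were compared with both parts of the E10.5 aorta, which share the UGR libraries as reference. Against E10.5 UGR, 8 of 37 Hox genes were called in AoV (21.6%, where 7.57% of all tested genes were called), 7 higher (3.84% of all genes) and 1 lower (3.73%). In AoD 4 were called (10.8%, where 11.3% of all genes were called, 4.76% higher and 6.56% lower), all of them lower, so that the share in AoD was no larger than that of all genes. With quantile normalization Hoxd13 was called too, as the 1 higher beside 4 lower in AoD. A pseudocount of 1 RPM left 5 calls in AoV. Without the fold threshold 26 passed in AoV and 16 in AoD, against 29.1% and 39.2% of all genes, and the ranges did not overlap for 30 and 17, against 48.6% and 50.9%. The 7 genes higher in AoV all have paralog numbers 10 to 13, and no tested gene of these numbers was called in AoD. Of these, Hoxd13 was 1.04 higher in AoD on the log2 scale without passing the adjusted p. Its reads, 32 in AoD and 9 in UGR, had a ratio of 3.46 (exact counting interval 1.61 to 8.24, counting error only). Hoxc12, Hoxa13 and Hoxc11 were too low for a call, with 0, 2 and 5 reads in AoD and 0, 3 and 3 in UGR. The missing calls thus do not show equal levels.

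Hoxa11 stood at 0.612, 0.295 and 0.329 RPM in E10.5 UGR, far below the 3.27 to 5 RPM of E10.5 AoV (log2 difference 2.97, SE 0.231, adjusted p = 2e-07). Hoxd11 stood at 0.741, 0.411 and 0.451 RPM in UGR (2.95, SE 0.362, adjusted p = 1.79e-05) and Hoxd10 at 4, 2.57 and 2.37 RPM (2.17, SE 0.215, adjusted p = 2.3e-06). In all 3 the UGR values lay near those of AoD, with differences of AoD from UGR of 0.42, -0.19 and -0.48, whose 95% intervals reached from -0.97 at the lowest to 0.91 at the highest. Hoxd13 was at 0.0889, 0.103 and 0.0282 RPM in UGR, 3, 5 and 1 reads, and 1.51 higher in AoV (adjusted p = 0.0191), a call that was lost without E10.5 AoV replicate 1, without E10.5 UGR replicate 3 and with a pseudocount of 1 RPM. Hoxd12 (1.31), Hoxc11 (1.30) and Hoxa10 (1.26) were higher in AoV too, the first 2 not with a pseudocount of 1 RPM, and Hoxc11 not without E10.5 AoV replicate 1. For Hoxc11, with 26 reads in AoV and 3 in UGR, the ratio was 8.47 with a 95% exact counting interval of 2.60 to 43.7. Hoxc10 stood at 40.1, 27.1 and 20.1 RPM in UGR, with 0.91 in AoV (adjusted p = 0.0287) and -0.35 in AoD, a difference that turned to 0.09 without E10.5 AoD replicate 2.

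Hoxd1 was the gene that set UGR apart from both aorta parts. It stood at 6.34, 5.94 and 4.96 RPM in UGR, against 1.17, 1.02 and 0.955 RPM in AoV (log2 difference of AoV from UGR -2.35, SE 0.131, adjusted p = 8.82e-09) and 0.948, 1.2 and 1.16 RPM in AoD (-2.28, SE 0.131, adjusted p = 4.01e-09). The lowest UGR library was 4.96 RPM and the highest of the 6 aorta libraries 1.2 RPM. Hoxd9 stood at 56.1, 46.7 and 52.3 RPM in UGR and was 1.82 lower on the log2 scale in AoD (SE 0.12, adjusted p = 1.71e-08), while AoV, at 60.0 to 66.9 RPM, was 0.30 above UGR. Hoxd8 stood at 61.4, 55.9 and 61.5 RPM in UGR, 39.5, 37.4 and 39 RPM in AoV and 20.8, 21.9 and 20.8 RPM in AoD, and was lower in AoD by 1.49 on the log2 scale (adjusted p = 1.26e-10) and not by 2-fold in AoV (-0.62). Hoxb1 stood at 2.49, 1.67 and 2.87 RPM in UGR and was lower in AoD (-1.17, adjusted p = 0.000191), a call lost with a pseudocount of 1 RPM. All 8 urogenital and nephric genes were lower in AoD than in UGR, and 4 were lower and 1 higher in AoV. Of the 9 neural tube genes 7 were higher and 1 lower in AoD than in UGR, where they summed to 25.5 to 28.3 RPM, and 3 were lower in AoV. Of the 6 somite genes 3 were higher in AoD and 5 lower in AoV, against sums of 133 to 197 RPM in UGR. Of the 8 hindgut genes 4 were higher and 2 lower in AoD and 2 each in AoV, and 2 of the 3 hindlimb and caudal ventral mesoderm genes were higher in AoV and 1 each way in AoD. The part of these markers in the Hox differences was not tested.

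From paralog number 2 to 8, most genes differed little between UGR and AoD. Over the 20 genes, the differences of AoD from UGR had a median of 0.16 for numbers 2 to 4 and -0.09 for numbers 5 to 8, and Hoxd8 was the only one called. Hoxa7 (76.2, 76.7 and 78.1 RPM), Hoxc6 (67.0, 65.6 and 68.9 RPM) and Hoxc8 (75.0, 77.0 and 78.8 RPM) had their highest group means in UGR. Of all 39 genes 21 had their highest mean in E9.5 AoD, 10 in E9.5 AoV, 6 in E10.5 UGR and 1 each in E10.5 AoD and E10.5 AoV. Of the 12 with paralog numbers 10 to 13, 9 had their highest mean in E9.5 AoV and 3 in E9.5 AoD. These are ranks of group means, with no test and no share over all genes, and that of Hoxb13 rests on at most 2 reads in a group. Of the 12, only Hoxa13, Hoxd12 and Hoxd13 were called between the parts at E9.5.

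The 4 genes with paralog number 9 show how members of 1 paralog group differed. In E10.5 AoV against E10.5 AoD, Hoxd9 was higher by 2.11 and Hoxa9 by 0.70 (adjusted p = 0.000512), while Hoxb9 was lower by 0.99 and Hoxc9 differed by -0.11 with a 95% interval of -0.24 to 0.02. Hoxa9 stood at 43.7, 43.9 and 48.5 RPM in AoV and 32.1, 21.4 and 31.6 RPM in AoD, and Hoxc9 at 25.9, 25 and 24.7 RPM and 28.9, 26.7 and 26.1 RPM. In the 3 genes with paralog number 11 all differences had the same sign, 2.56, 1.13 and 3.15. The most abundant genes of the Hoxa and Hoxc clusters passed no fold threshold. Hoxa5 had group means of 48.5 to 66.9 RPM with no call in any comparison, and Hoxc8, with means of 22.9 to 76.9 RPM, had none either.

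Of the 37 tested genes 9 were called in none of the 7 comparisons, Hoxa3, Hoxa4, Hoxa5, Hoxb2, Hoxb4, Hoxb5, Hoxb6, Hoxc5 and Hoxc8, all of them with paralog numbers from 2 to 8. The share of all tested genes called in none of the 7 was not computed, so whether 9 is few or many is not known. Hoxb6 stood at 33.6 ± 1.24 RPM in E9.5 AoD and 31.5 ± 2.27 in E10.5 AoD, close to the 31.8 ± 2.74 of UGR, and at 20.3 ± 1.77 and 19.4 ± 0.608 RPM in the AoV groups. Like its neighbour Hoxb8 it was lower in AoV at both stages, but by less than 2-fold (-0.73 and -0.69, adjusted p = 1.94e-06 at E9.5 and 4e-06 at E10.5). Hoxb2, which patterns the hindbrain, was lower in both parts at E10.5. It stood at 46.9 ± 1.25 RPM in E9.5 AoD and 34.2 ± 5.55 in E9.5 AoV, and at 23.9 to 28.7 RPM as group means at E10.5, with stage differences of -0.81 in AoD and -0.50 in AoV. Of its exon length 49.4% is shared with the antisense transcript Hoxb3os, which stood at 35.0 to 37.4 RPM in E9.5 AoD and 23.2 to 25.7 RPM in E10.5 AoD, so that their reads may in part not be told apart. The lowest group mean of Hoxa4 was that of UGR, at 10.4 ± 0.425 RPM.

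The genes at the ends of the Hoxb and Hoxc clusters were hardly present. Hoxb13 (chromosome 11, 96055630 to 96058761) was at 0 in 12 libraries and at 1 or 2 reads in the other 3, at most 0.0428 RPM, and was not tested. Hoxc13 reached at most 0.479 RPM and was not tested either, with 5, 11 and 20 reads in E9.5 AoD, 21, 19 and 6 in E9.5 AoV, 2 in all in each E10.5 aorta group and 0 in UGR. The ratio of E9.5 to E10.5 was 17.5 in AoD (95% exact counting interval 4.50 to 149.9) and 21.5 in AoV (5.62 to 183). These intervals cover counting error only. Hoxc4, at the other end of its cluster, stood at 51.4 ± 1.80 RPM in E9.5 AoD, 24.8 ± 3.31 in E9.5 AoV, 50.8 ± 4.80 in E10.5 AoD, 36.0 ± 3.01 in E10.5 AoV and 38.0 ± 2.45 in E10.5 UGR.

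Libraries of 1 group did not always agree for posterior genes. In E10.5 AoD, replicate 2 was the lowest in 5 of the 10 tested genes with paralog numbers 10 to 13, with Hoxa10 at 8.40, 3.59 and 8.24 RPM in the 3 libraries. In E10.5 AoV, replicate 1 was the highest in 8 of the 10. In E10.5 UGR, replicate 1 was the highest in 6, with Hoxa10 at 13.2, 7.85 and 6.17 RPM. In E9.5 AoV, replicate 1 was the lowest in 7. Removing each library in turn left between 12 and 15 calls in the ventral stage comparison, 14 to 18 in the dorsal, 8 to 11 between the parts at E10.5 and 12 to 15 at E9.5.

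Genes that act with or upstream of the Hox genes were taken from lists. Of the 12 upstream signals and Cdx factors, 1 rose and 5 fell in AoV between the stages, and 6 fell in AoD. Cdx4, Wnt3a, Fgf8 and Cyp26a1 are also among the tail bud genes above and Cdx2 among the hindgut genes, so the counts of these lists are not separate observations. Cdx2 stood at 8.87, 4.94 and 10.3 RPM in E9.5 AoD, 26.5, 27.4 and 26.1 RPM in E9.5 AoV and at most 1.15 RPM in any library of E10.5 (log2 difference -4.90 in AoV and -5.03 in AoD). Cdx4 had the largest fall of the list in AoD (-5.59), from 4.41 to 10.3 RPM to at most 0.0512 RPM. Aldh1a2, which makes retinoic acid, stood at 139, 167 and 150 RPM in E9.5 AoD, 90.2, 92.9 and 101 RPM in E9.5 AoV, 34.7, 51.4 and 44.3 RPM in E10.5 AoD, 234, 220 and 228 RPM in E10.5 AoV and 425, 391 and 402 RPM in E10.5 UGR. It was called higher in E10.5 AoV than in E10.5 AoD (2.40) and had an interaction of 3.08. Of the 12 genes, 2 were higher and 1 lower in E10.5 AoV than in E10.5 AoD. The interaction was higher for 4 and lower for 2. The retinoic acid receptor Rarg went the other way from Aldh1a2. It stood at 20.5 ± 0.907 RPM in E10.5 AoV and 58.1 ± 5.39 in E10.5 AoD, and at 47.7 ± 3.67 in E9.5 AoV and 35.0 ± 1.86 in E9.5 AoD.

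Of the 9 TALE cofactors none was called between the stages in either part, and 1, Pbx3 (1.05), was called between the parts at E10.5, at 121, 123 and 120 RPM in AoV and 56.9, 61.5 and 57.0 RPM in AoD. Of the 15 chromatin regulators that act on Hox clusters, from Kmt2a to the Polycomb proteins and Ctcf, none was called in any of the 7 comparisons. Of 9 genes that flank the clusters, the homeobox genes Evx1, next to Hoxa13, and Evx2, next to Hoxd13, were the 2 called in both stage comparisons. Evx2 stood at 4.70, 7.49 and 7.13 RPM in E9.5 AoV and at most 0.0778 RPM in E10.5 AoV (log2 difference -5.62), and at 0.885, 1.21 and 0.257 RPM in E9.5 AoD. It was higher in E9.5 AoV than in E9.5 AoD (3.05), as was Evx1 (1.56), in the direction of their Hox neighbours. Skap1, beside the Hoxb cluster, was the flanking gene called lower in AoV (-2.39) and AoD (-2.93) than in UGR.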

How the data were processed

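Tissue RNA of 15 pooled samples was sequenced as single-end reads. Per the study's methods, the authors mapped these to the NCBI37 (mm9) mouse genome using TopHat with Bowtie (0.12.3 for Bowtie in the submitters' processing notes) and counted them over Ensembl genes in GeneProf, which splits reads with several matches between genes. The deposited RPM values are rounded to 3 significant digits and adjusted neither for gene length nor between libraries. The strand of counting is not given in the sources used here. The authors' 12 columns of fold changes and p-values were not used. Depth was inferred from the step between low values. Of the low values, 60.7% to 64.1% per library were whole reads within 0.02 reads, so counts were not recovered for the table, and values of the low genes given as reads were rounded.

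Genes reaching 0.5 RPM in any sample, 18553 of 28876, entered a limma fit (version 3.58.1, R 4.3.3) of log2(RPM + 0.1) with the 5 groups as means, an intensity trend and Benjamini-Hochberg adjustment over all these genes. The pseudocount is worth 3.37 to 4.86 reads. A gene was called at an adjusted p below 0.05 and a 2-fold change. Same-number libraries of E9.5 AoD and E9.5 AoV deviated together (correlations 0.19 to 0.45 in 3 of 3 pairs), though the labels state no pairing. Within E10.5, 6 of 9 such pairs were over 0.1 and across stages 2 of 18. The main fit used no pairing in any comparison, and the replicate number entered only as a block in an alternative. P-values measure the spread between pools. A group at 0 was set to a floor of 3 reads over the group, and intervals of read ratios are exact binomial ones at 95%. Both cover counting error only. Exon lengths are those of GENCODE genes on NCBIM37.

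Of the members, 1 is not reported here and stays only in the counts and sums. The members and all gene lists were chosen with earlier results of these data known. Named are, for each comparison, the called Hox genes with the 4 largest changes in each direction, the most abundant gene and the ends of each cluster, genes with a called interaction or failing the filter, and from other lists the gene called by the largest fold or markers moving with posterior Hox genes. Others are named by their counts or as exceptions, after their values were seen. Alternatives were another pseudocount, other filters, scalings, thresholds, a replicate block and leaving out each library.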

Additional observations from a re-analysis of the deposited data

Results flagged for a closer look

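The stage change differed between AoV and AoD, by the interaction term of the fit over all genes, for 13 Hox genes. The values, as the change in AoV minus that in AoD on the log2 scale, were 3.07 for Hoxd11, 2.64 for Hoxb1, 2.38 for Hoxd10, 2.35 for Hoxd9, 1.75 for Hoxa11, 1.57 for Hoxc10 and 1.5 for Hoxa6. Further values were 1.42 for Hoxd4, 1.31 for Hoxd3, 1.25 for Hoxa10, 1.18 for Hoxa9 and 1.01 for Hoxb9. Hoxa13 was the gene with a negative value, -2.36, the size of which depends on the pseudocount. Groups of 3 libraries are too small for a test of single libraries that stand apart.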

How the results depend on the processing

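The numbers of called Hox genes moved by at most 1.5 times under other filters, scalings and sets of samples. Without the fold threshold they were 27 and 30 for the stage change in AoV and AoD, 24 and 29 for AoV against AoD at E10.5 and E9.5, 26 and 16 for AoV and AoD against UGR and 24 for the interaction. Testing against a log2 change of 1 gave 11 for the stage change in AoD, 5 and 5 for AoV against AoD at E10.5 and E9.5, 4 for AoV against UGR and 4 for the interaction. Fewer or more calls follow from how these thresholds are built. A pseudocount of 1 RPM gave 5 for AoV against UGR. Leaving out 1 library at a time gave 12 to 15 and 14 to 18 calls for the stage change in AoV and AoD, 8 to 11 and 12 to 15 for AoV against AoD at E10.5 and E9.5, 7 to 9 and 4 to 4 for AoV and AoD against UGR and 10 to 15 for the interaction. Single genes were followed for 187 differences, those that were called or not close to 0 in the main fit. Differences near 0, which change sign most easily, were thus left out beforehand. Of the 3071 values of the followed genes under alternatives 2863 kept their side of the threshold, 84 lost a call, 121 gained one and 3 changed sign. These were Hoxd13 in AoV against AoD at E10.5 (-0.18 to 0.94 without 1 library), Hoxc10 in AoD against UGR (-0.61 to 0.0927 without 1 library) and the interaction of Hoxc11 (-0.18 with a pseudocount of 1 RPM), none of them called. The cause was not tested. With the replicate number as a block the counts were 13, 17, 10, 15, 8, 4 and 13, each with the same genes as without it. With the block and only the groups compared, a pairing within each stage chosen after seeing the data, they were 9 and 15 for AoV against AoD at E10.5 and E9.5 and 7 and 4 for AoV and AoD against UGR, the same numbers as for only the groups compared without the block. Of the 15 libraries 13 correlated best with 1 of their own number. Counts at or below 3 reads, as those of Hoxa13 and Hoxc11 in E10.5 AoD and E10.5 UGR, limit the precision of the differences given for them.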
